A study of Homo sapiens with 9 samples.

Results

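A set of 10 genes that drive entry into mitosis and police its progress were read from the OVCAR4 gene count table by gene name: CDK1, CCNB1, CCNB2, CCNA2, AURKA, AURKB, PLK1, BUB1, BUB1B and TTK. They are 10 of the 58735 genes in the table, and all 10 were among the 16928 genes with enough counts to be tested. OVCAR4 is a cell line of ovarian serous adenocarcinoma. The cells carried either a scramble (scr) shRNA, labelled as wild type, or 1 of 2 shRNAs against MPZL3, a predicted cell adhesion molecule, here called shMPZL3 #1 and shMPZL3 #2. All cells, controls included, had been transduced with lentivirus and selected with puromycin, and poly-A RNA was sequenced from 3 biological replicates of each condition, 9 libraries in all. The study asked what MPZL3 knockdown does to gene expression in these cells. The comparisons here are the 6 knockdown libraries against the 3 scr controls, each shRNA against the same 3 controls, and the shRNAs against each other.

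CDK1 is the kinase that starts mitosis, and it is inactive until it binds an A-type or B-type cyclin, whose destruction then lets the cell leave mitosis. The Aurora kinases and PLK1 mature the centrosomes, build the spindle and separate the daughter cells, while TTK, BUB1 and BUB1B hold the spindle checkpoint until every chromosome is attached. Transcripts of these genes build up late in the cell cycle, so their level in a bulk sample follows the share of cells in G2 and mitosis as well as the transcript level in each cell. In these bulk libraries, fewer cells of that kind and less RNA per cell cannot be told apart.

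A promoter sequence motif shared by many genes of this timing is the cell cycle genes homology region, TTTGAA, often found near CCAAT boxes. RefSeq promoter sequences on GRCh38.p14 were at hand for 8 of the 10 genes, as 10 start sites. CDK1 and AURKB had 2 starts each, and the sequences searched at the 2 AURKB starts overlap. In the 100 bases before the start, TTTGAA stood in 4 of the 10 sequences, against 4.61% of 35116 RefSeq starts searched in the same way, and CCAAT stood in 6 of 10, against 18.1%. Both strands were searched, for these exact letters only, and the motifs do not overlap each other. Both motifs stood in 3 of the 10, against 0.923% of all starts. The sequences below are the 4 with TTTGAA and that of CCNB1 with its pair of CCAAT boxes, written 5′ to 3′ on the gene's strand, with both motifs in capitals (a match on the other strand appears as ATTGG). A match describes the letters only.
CDK1, chr10:60778378-60778477, + strand: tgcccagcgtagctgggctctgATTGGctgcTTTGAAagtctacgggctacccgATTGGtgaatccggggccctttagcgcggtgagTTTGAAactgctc
CCNB2, chr15:59105046-59105145, + strand: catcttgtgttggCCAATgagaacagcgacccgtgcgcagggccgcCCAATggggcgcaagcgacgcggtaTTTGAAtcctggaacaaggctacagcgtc
PLK1, chr16:23678789-23678888, + strand: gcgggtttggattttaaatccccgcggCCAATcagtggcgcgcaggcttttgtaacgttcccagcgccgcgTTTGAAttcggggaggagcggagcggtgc
BUB1B, chr15:40160969-40161068, + strand: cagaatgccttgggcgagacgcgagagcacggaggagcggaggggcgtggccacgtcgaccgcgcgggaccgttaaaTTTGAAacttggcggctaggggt
CCNB1, chr5:69167050-69167149, + strand: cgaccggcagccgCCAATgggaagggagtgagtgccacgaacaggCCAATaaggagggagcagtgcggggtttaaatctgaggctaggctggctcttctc
In CCNB2 and PLK1 the first base of TTTGAA lay 29 bases before the start. In BUB1B it lay 23 bases before the start, and the second CDK1 start had copies at 13 and 69 bases.

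The libraries held 15040102 to 27835841 counts. MPZL3 itself, the targeted gene, stood at 578 ± 38.5 normalized counts (SD, n = 3) in scr controls, 128 ± 12.9 with shMPZL3 #1 and 312 ± 59.5 with shMPZL3 #2, with no overlap between the 3 groups. A normalized count is the count scaled to a common effective library size. Epithelial and ovarian markers such as PAX8, EPCAM, MUC16 and the keratins were abundant, WT1 had 3 to 13 counts per library, and the 9 markers together made 5124 to 5336 CPM (counts relative to the effective library size) in controls, 5172 to 6334 with shMPZL3 #1 and 5094 to 6319 with shMPZL3 #2. Markers of leukocytes, endothelium and fibroblasts summed to 21.6 to 25.1 CPM in controls, 40.6 to 57.2 with shMPZL3 #1 and 37.1 to 39.8 with shMPZL3 #2. Of those 9, CD163 and DCN had no count in any library, and the 2 of 5 tested that were called higher in the grouped comparison were COL1A1 and LUM. Their part in the results was not tested.

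Transcripts of the mitotic kinases and cyclins were lower with MPZL3 knockdown, and AURKB was the 1 gene not called. With both shRNAs grouped, 9 of the 10 fell at an adjusted p under 0.05 (edgeR quasi-likelihood test, Benjamini-Hochberg adjustment over all genes tested), where 6.4% of the genes tested fell. None of the 10 rose by edgeR, by DESeq2 or at an unadjusted p under 0.05, where 9.36% of the genes tested rose. The median log2 fold change of the 10 was -0.64, beside 0.02 over all genes. All 6 knockdown libraries lay below all 3 controls for 9 genes, an arrangement held by 11% of the genes tested, and for none did all 6 lie above, as 11.8% of the genes tested did. Together the 10 genes took 0.148% to 0.151% of all counts in the controls, 0.0647% to 0.100% with shMPZL3 #1 and 0.100% to 0.113% with shMPZL3 #2.

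The count of grouped calls changed with the controls, for the 10 genes and for all genes. Without scr control replicate 1 or without replicate 2, 3 of the 10 were called, and without replicate 3, 4 were. The share of all genes tested that fell was 0.978% without replicate 1, 1.58% without replicate 2 and 2.4% without replicate 3. The log2 fold changes themselves stayed between -0.91 and -0.14 in every one of the 9 fits that left out 1 library.

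**Figure D1:**
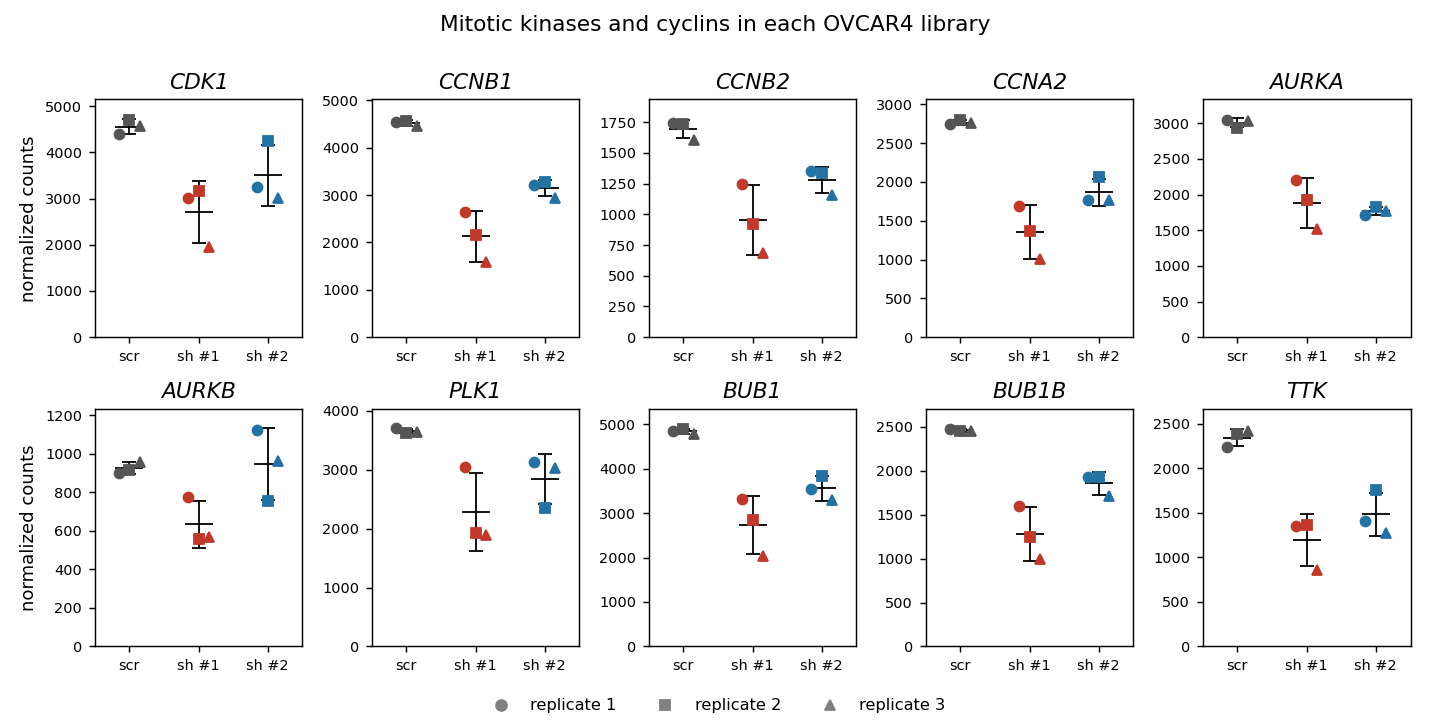
Normalized counts of the 10 genes in the 9 OVCAR4 libraries, by shRNA (scr, scramble control; sh #1 and sh #2, shMPZL3 #1 and #2); each y axis starts at 0, symbols mark the replicate number, and bars give the mean ± SD of 3 libraries. The controls sit close together for every gene, and AURKB is the 1 gene whose knockdown libraries, from 555 to 1126, reach on both sides of the controls.

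CDK1 (chr10:60778331-60794852, + strand, hg38), the catalytic subunit of the mitotic kinase, had 4388, 4701 and 4580 normalized counts in the controls, 3010, 3166 and 1943 with shMPZL3 #1 and 3253, 4245 and 3008 with shMPZL3 #2. Every knockdown library was below every control, and shMPZL3 #2 replicate 2 came close to the controls. Its grouped log2 fold change was -0.55 ± 0.17 (SE, edgeR adjusted p = 0.0407), and leaving out 1 of several libraries brought the adjusted p above the threshold, to as much as 0.135 without scr control replicate 2. The fall was -0.75 with shMPZL3 #1 (edgeR adjusted p = 0.00152). With shMPZL3 #2 the log2 fold change was -0.38 ± 0.15 and did not pass (edgeR adjusted p = 0.109).

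CCNB1, the B-type cyclin that is the main partner of CDK1 at mitotic entry, had 4547, 4570 and 4457 normalized counts in the controls, 2654, 2150 and 1581 with shMPZL3 #1 and 3215, 3270 and 2947 with shMPZL3 #2. The 3 groups did not overlap, and shMPZL3 #1 was the lowest. The fall was -1.09 ± 0.14 with shMPZL3 #1 (edgeR adjusted p = 3.1e-05) and -0.53 ± 0.14 with shMPZL3 #2 (edgeR adjusted p = 0.0148). CCNB2, the second B-type cyclin, had 1741, 1735 and 1607 normalized counts in the controls, 1250, 917 and 685 with shMPZL3 #1 and 1348, 1336 and 1160 with shMPZL3 #2. The knockdown libraries were all below the controls, but the shRNAs overlapped each other. CCNB2 fell with shMPZL3 #1 (-0.83 ± 0.16, edgeR adjusted p = 0.00068) and did not pass with shMPZL3 #2 (-0.40 ± 0.15, edgeR adjusted p = 0.0879).

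CCNA2, the A-type cyclin that serves S phase and the run up to mitosis, had 2742, 2799 and 2755 normalized counts in the controls, 1695, 1374 and 1003 with shMPZL3 #1 and 1761, 2069 and 1767 with shMPZL3 #2. No group overlapped another. Its log2 fold change was -1.03 ± 0.14 with shMPZL3 #1 (edgeR adjusted p = 6.3e-05) and -0.57 ± 0.14 with shMPZL3 #2 (edgeR adjusted p = 0.0112). The libraries were not directional and EXOSC9 overlaps CCNA2 on the opposite strand, so reads from the overlap cannot be assigned between them. Over the 9 libraries CCNA2 had 17461 counts and EXOSC9 5260.

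AURKA, the Aurora kinase of centrosomes and spindle poles, had 3050, 2939 and 3032 normalized counts in the controls, 2207, 1921 and 1515 with shMPZL3 #1 and 1716, 1831 and 1771 with shMPZL3 #2. Both shRNAs lay below the controls, and the shMPZL3 #2 libraries fell inside the range of shMPZL3 #1. It had the smallest grouped adjusted p of the 10 (-0.72 ± 0.11, edgeR adjusted p = 0.00128) and was called in every fit that left out 1 library. The log2 fold change was -0.68 with shMPZL3 #1 (edgeR adjusted p = 0.000348) and -0.76 with shMPZL3 #2 (edgeR adjusted p = 0.000256), and the difference between the shRNAs was -0.09 ± 0.12 (edgeR adjusted p = 0.673).

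AURKB, the Aurora kinase of the chromosomal passenger complex at centromeres and the midbody, had 899, 916 and 958 normalized counts in the controls, 775, 555 and 568 with shMPZL3 #1 and 1126, 756 and 960 with shMPZL3 #2. All shMPZL3 #1 libraries were below the controls, while the shMPZL3 #2 libraries lay below, above and just past their upper end. AURKB fell with shMPZL3 #1 (-0.55 ± 0.15, edgeR adjusted p = 0.00955). With shMPZL3 #2 the log2 fold change was 0.04 ± 0.15 (edgeR adjusted p = 0.901). Leaving out shMPZL3 #2 replicate 1 turned this value to -0.12. The grouped value was -0.23 ± 0.19 and was not called (edgeR adjusted p = 0.448).

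PLK1, the Polo-like kinase of mitotic entry and cytokinesis, had 3703, 3623 and 3646 normalized counts in the controls, 3048, 1922 and 1886 with shMPZL3 #1 and 3135, 2349 and 3032 with shMPZL3 #2. Each knockdown library was below the controls, and the shRNAs overlapped. PLK1 fell with shMPZL3 #1 (-0.68 ± 0.15, edgeR adjusted p = 0.00314), and with shMPZL3 #2 it did not pass (-0.37 ± 0.15, edgeR adjusted p = 0.122). The grouped call (-0.51 ± 0.16, edgeR adjusted p = 0.0464) was near the threshold and went to an adjusted p of 0.160 without scr control replicate 1.

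TTK, the kinase that starts checkpoint signaling at unattached kinetochores, had 2240, 2384 and 2417 normalized counts in the controls, 1357, 1367 and 860 with shMPZL3 #1 and 1415, 1755 and 1280 with shMPZL3 #2. The knockdown libraries were well below the controls with either shRNA. TTK had the most negative grouped log2 fold change of the 10 (-0.81 ± 0.16, edgeR adjusted p = 0.00511), and it fell with shMPZL3 #1 (-0.97, edgeR adjusted p = 0.000167) and with shMPZL3 #2 (-0.66, edgeR adjusted p = 0.00667).

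BUB1, the kinase that marks centromeric chromatin and recruits checkpoint proteins, had 4849, 4894 and 4775 normalized counts in the controls, 3314, 2855 and 2036 with shMPZL3 #1 and 3536, 3832 and 3290 with shMPZL3 #2. BUB1B, its paralog and a subunit of the complex that inhibits the anaphase promoting complex, had 2477, 2450 and 2451 in the controls, 1601, 1243 and 991 with shMPZL3 #1 and 1932, 1934 and 1708 with shMPZL3 #2. For both genes all knockdown libraries lay below the controls, and for BUB1B the shRNAs were also apart from each other. BUB1 fell by 0.82 on the log2 scale with shMPZL3 #1 (edgeR adjusted p = 0.000242) and by 0.45 with shMPZL3 #2 (edgeR adjusted p = 0.0327). BUB1B fell by 0.94 with shMPZL3 #1 (edgeR adjusted p = 7.8e-05) and by 0.41 with shMPZL3 #2 (edgeR adjusted p = 0.0472).

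**Figure D2:**
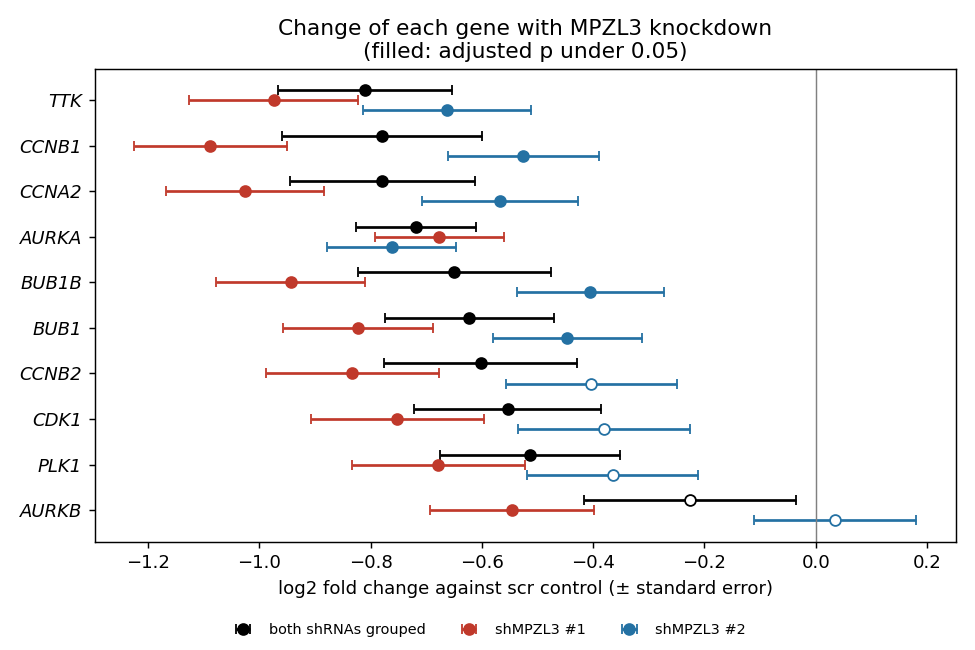
Fitted log2 fold change against scr control (x axis, ± SE) for each gene, with both shRNAs grouped in black, shMPZL3 #1 in red and shMPZL3 #2 in blue; filled points passed an adjusted p of 0.05. TTK, CCNB1, CCNA2, AURKA, BUB1 and BUB1B are filled in all 3 comparisons, shMPZL3 #1 lies to the left of shMPZL3 #2 for every gene but AURKA, and the AURKB point for shMPZL3 #2 is at 0.04.

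The comparisons of single shRNAs use the same 3 controls and so are not independent of each other. With shMPZL3 #1 all 10 genes fell, where 15.3% of the genes tested fell, and none rose by edgeR, by DESeq2 or at an unadjusted p under 0.05, where 16.8% of the genes tested rose. All shMPZL3 #1 libraries lay below all controls for the 10, as for 22.8% of the genes tested. The 10 were called in each of the 9 fits that left out 1 library. Their median log2 fold change was -0.83, beside 0.01 over all genes.

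With shMPZL3 #2, CCNB1, CCNA2, AURKA, BUB1, BUB1B and TTK fell, 6 of 10, where 5.8% of the genes tested fell. None rose by edgeR, by DESeq2 or at an unadjusted p under 0.05, where 9.36% of the genes tested rose. All shMPZL3 #2 libraries lay below all controls for 9 genes, AURKB being the exception, as for 17.6% of the genes tested. The median of the 10 was -0.43, beside 0.00 over all genes. Without shMPZL3 #2 replicate 3 AURKA alone was called, where 2.02% of all genes tested fell, and without scr control replicate 2, 3 of the 10 were, where 2.86% fell. With no filter on low counts 9 were called, where 3.18% of 34030 genes tested fell.

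The shRNAs were compared directly. CCNB1, CCNA2, AURKB and BUB1B were higher with shMPZL3 #2 than with shMPZL3 #1, 4 of 10, where 7.56% of the genes tested were higher. Their log2 differences were 0.56 ± 0.14 for CCNB1 (edgeR adjusted p = 0.0106), 0.46 ± 0.14 for CCNA2 (edgeR adjusted p = 0.0366), 0.58 ± 0.15 for AURKB (edgeR adjusted p = 0.0132) and 0.54 ± 0.13 for BUB1B (edgeR adjusted p = 0.0116). None was lower by edgeR, by DESeq2 or at an unadjusted p under 0.05, where 7.56% of the genes tested were lower. The median difference of the 10 was 0.40, beside 0.01 over all genes, and the other 6 genes did not pass, with differences from -0.09 (AURKA) to 0.43 (CCNB2). MPZL3 also stood higher with shMPZL3 #2 than with shMPZL3 #1, and whether the depth of its knockdown bears on this difference was not tested. The count ran from 2, without any 1 of shMPZL3 #1 replicates 2 and 3 and shMPZL3 #2 replicates 1 and 3, to 7 without shMPZL3 #1 replicate 1. In the fits that left out 1 library, the share of all genes tested that was higher ran from 3.81% without shMPZL3 #2 replicate 3 to 8.67% without shMPZL3 #1 replicate 1. With no filter on low counts 7 of the 10 were called, where 4.19% of 34030 genes tested were higher.

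FPKM here is the count divided by the deposited gene length and by the effective library size, the total scaled by its TMM factor. The order between genes depends on that length, and whether it matches the transcripts expressed was not tested. By FPKM the 10 genes stood in the same order in all 3 controls. CCNB1 was the highest at 86.1 ± 1.14 FPKM (SD, n = 3), followed by CDK1 at 56.4 ± 1.96, AURKA at 50.0 ± 0.99 and CCNA2 at 48.1 ± 0.53. BUB1 stood at 39.1 FPKM, PLK1 at 37.4, CCNB2 at 29.5, BUB1B at 26.8 and TTK at 24.96, and AURKB was the lowest at 20.1 ± 0.66. No gene's range over the 3 controls touched that of its neighbor in this order. With shMPZL3 #1 every neighbor overlapped the next, from CCNB1 at 40.5 ± 10.2 FPKM down to TTK at 12.7 ± 3.08. With shMPZL3 #2 CCNB1 (59.9 ± 3.29 FPKM), CDK1 (43.4 ± 8.12) and CCNA2 (32.5 ± 3.07) kept apart from the gene below them, as did BUB1 from CCNB2. AURKA, PLK1 and BUB1 overlapped at 28.7 to 29.5 FPKM, and AURKB stood eighth, at 20.6 ± 4.03, overlapping CCNB2, above it, and BUB1B, below it.

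The libraries of the knockdown groups were spread more widely than the controls. The coefficient of variation of the 10 genes was 0.616% to 4.45% in the controls, 18.5% to 29.9% with shMPZL3 #1 and 3.25% to 19.6% with shMPZL3 #2. Within shMPZL3 #1, replicate 3 was the lowest library for 9 of the 10 genes and replicate 1 the highest for 8. Within shMPZL3 #2, replicate 3 was the lowest for 6 and replicate 2 the highest for 7, whereas PLK1 and AURKB were lowest in replicate 2. The difference in spread was not tested.

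Ratios within a library, which do not depend on how libraries are scaled, were compared for 5 pairs by exact two-sided permutation tests, with p adjusted over the 5. None passed, and with 3 libraries against 3 an exact permutation p cannot go below 0.1. With 6 against 3 it cannot go below 0.0119, so 1 pair alone could not pass after adjustment over the 5. A ratio that did not pass is therefore not shown to be unchanged. The log2 ratio of CCNB1 to CCNB2 averaged 1.42 in the controls and 1.24 in the 6 knockdown libraries, which all lay below the controls (exact permutation p = 0.0238, adjusted 0.119). The log2 ratio of CCNA2 to CDK1 was -0.72 in the controls and -0.95 in the knockdown libraries (exact permutation p = 0.0476, adjusted 0.119).

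The log2 ratio of AURKA to AURKB was 1.76, 1.68 and 1.66 in the controls, 1.51, 1.79 and 1.41 with shMPZL3 #1 and 0.61, 1.28 and 0.88 with shMPZL3 #2. The shMPZL3 #2 libraries were all below both other groups, while shMPZL3 #1 overlapped the controls. The difference from the controls was -0.78 with shMPZL3 #2 (exact permutation p = 0.1, the smallest possible, adjusted 0.167) and -0.13 with shMPZL3 #1 (exact permutation p = 0.4, adjusted 0.4). The log2 ratio of BUB1 to BUB1B had a grouped difference of 0.04 (exact permutation p = 0.607, adjusted 0.607), and CCNB1 to CDK1 differed by -0.23 (exact permutation p = 0.143, adjusted 0.179).

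**Figure D3:**
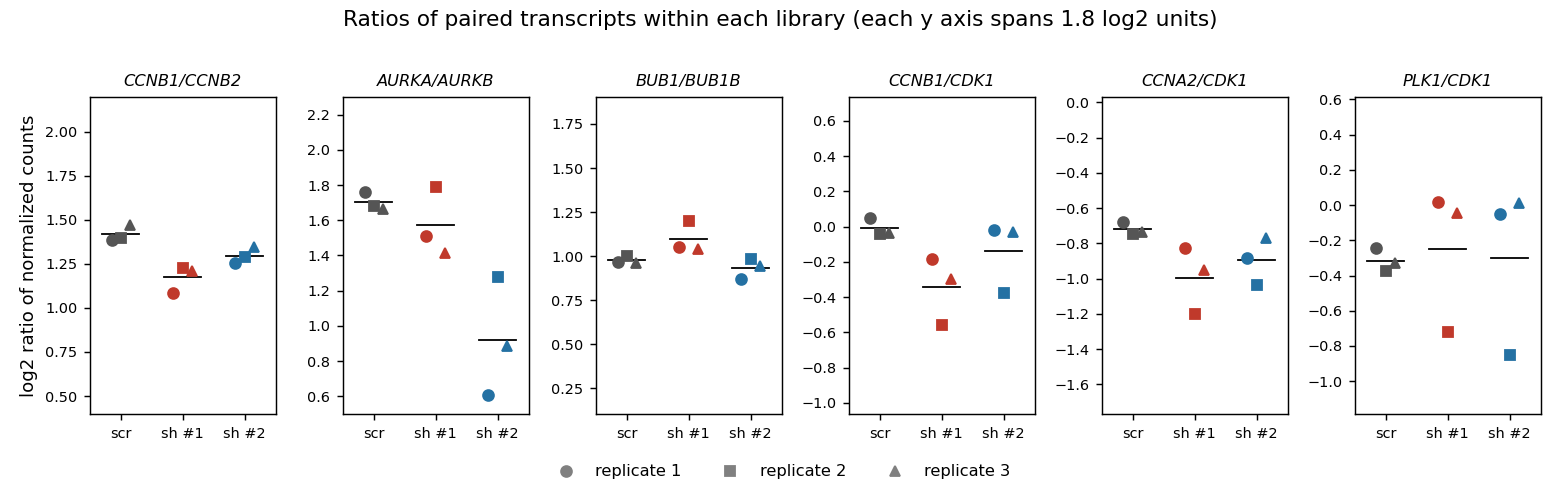
Log2 ratio of normalized counts of 2 genes within each library (y axes each span 1.8 log2 units), for the 5 pairs tested and, at the right, PLK1 to CDK1, which was added after its values were seen; symbols mark the replicate number and bars the group mean. The AURKA to AURKB ratio is lowest in the shMPZL3 #2 libraries, at 0.61 to 1.28, and the PLK1 to CDK1 ratio is lowest in replicate 2 of both shRNAs, at -0.72 and -0.85.

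Genes outside the 10 with the most similar pattern over the 9 libraries were sought by the root-mean-square difference of centered log2 CPM from the mean of the 10, among 9797 well expressed protein-coding genes. The 8 closest were the spindle protein SPAG5 (0.0621 log2 units), RRM1 (0.0695) and TYMS (0.0774), which supply deoxynucleotides, PTTG1 (0.0725), the securin that restrains separase, KPNA2 (0.0727), a nuclear import receptor, HNRNPR (0.0758), an RNA-binding protein, the condensin subunit NCAPH (0.0814) and the kinetochore protein CENPF (0.0827). Of the 10 themselves BUB1 was closest to their mean (0.0374), and AURKA (0.204) and AURKB (0.264) were the farthest.

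Partners of the 10 genes were counted by role, each list against the same controls. Beside the grouped counts of every list stand the shares over all genes tested, 6.4% lower and 9.36% higher. With shMPZL3 #1 and #2 taken singly, 15.3% and 5.8% of the genes tested fell. In that order 10 and 5 of the 11 Aurora and PLK1 partners fell. The counts were 8 and 4 of 10 other checkpoint genes and 6 and 3 of 8 other mitotic kinases. They were 7 and 2 of 16 CDK1 regulators, 10 and 2 of 21 anaphase promoting complex genes and 6 and 1 of 17 family relatives. Of 11 partners of the Aurora kinases and PLK1, 6 fell in the grouped comparison, with a median of -0.54, and none rose (edgeR; 0 at an unadjusted p under 0.05 and 0 by DESeq2). CEP55, which acts in abscission, fell by 0.73 on the log2 scale (edgeR adjusted p = 0.00246). BORA, the cofactor with which AURKA activates PLK1, fell by 0.70 (edgeR adjusted p = 0.0126), and CEP192, the centrosomal scaffold of both kinases, by 0.61 (edgeR adjusted p = 0.00147). ECT2, the exchange factor of cytokinesis, fell by 0.64 (edgeR adjusted p = 0.0116). INCENP, the scaffold of the AURKB complex, was at -0.36 and did not pass (edgeR adjusted p = 0.0776).

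Of 10 other spindle checkpoint genes, 4 fell in the grouped comparison, with a median of -0.45, where 6.4% of the genes tested fell. None rose by edgeR, by DESeq2 or at an unadjusted p under 0.05, where 9.36% of the genes tested rose. SPDL1, which brings dynein to kinetochores, fell by 0.96 (edgeR adjusted p = 0.00154) and MAD2L1, the checkpoint effector, by 0.80 (edgeR adjusted p = 0.00963). The kinetochore proteins KNTC1 (-0.53, edgeR adjusted p = 0.00931) and KNL1 (-0.52, edgeR adjusted p = 0.0198) also fell, and MAD1L1 was at 0.08 (edgeR adjusted p = 0.779). Of 8 other mitotic kinases, 4 fell, with a median of -0.49: PBK by 0.94 (edgeR adjusted p = 0.00263), the centrosomal NEK2 by 0.67 (edgeR adjusted p = 0.00948), NEK6 by 0.52 (edgeR adjusted p = 0.00754) and VRK1 by 0.52 (edgeR adjusted p = 0.0483). No gene of that list rose in the grouped edgeR fit, where NEK9 was at 0.47 (edgeR adjusted p = 0.0524), though 1 was higher at an unadjusted p under 0.05 and by DESeq2.

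Of 16 regulators of CDK1 activity, 3 fell and 1 rose in the grouped comparison, with a median of -0.22. Of all genes tested 6.4% fell and 9.36% rose, so 1 of 16 rising is not above the background. CDC25C, the phosphatase that activates CDK1, fell by 0.78 (edgeR adjusted p = 0.00384), MASTL, which protects CDK1 phosphorylations, by 0.42 (edgeR adjusted p = 0.0403), and PPP2R2A, a subunit of the opposing phosphatase, by 0.31 (edgeR adjusted p = 0.0387). CDKN1A, the CDK inhibitor p21, rose by 1.13 ± 0.14 (edgeR adjusted p = 0.000473), by 1.03 with shMPZL3 #1 (edgeR adjusted p = 3.2e-05) and by 1.22 with shMPZL3 #2 (edgeR adjusted p = 1.1e-05). CKS1B was at -0.54 and did not pass (edgeR adjusted p = 0.0645). Of 21 subunits, regulators and targets of the anaphase promoting complex, 4 fell, with a median of -0.23, and none rose (edgeR; 0 at an unadjusted p under 0.05 and 0 by DESeq2). PTTG1 fell by 0.69 (edgeR adjusted p = 0.0149), the activator CDC20 by 0.57 (edgeR adjusted p = 0.0430), ESPL1, which is separase, by 0.50 (edgeR adjusted p = 0.0227) and the scaffold subunit ANAPC1 by 0.35 (edgeR adjusted p = 0.0453), while ANAPC16 was at -0.02 (edgeR adjusted p = 0.934).

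Of 16 regulators of G2 and mitotic transcription, subunits of their complexes included, 1 fell in the grouped comparison. It was LIN9, a subunit of the complex that binds these promoters (-0.50, edgeR adjusted p = 0.0485). With 6.4% of all genes tested falling, 1 of 16 is near the background. By DESeq2, which called 8.85% of genes lower, 3 fell, and 4 were lower at an unadjusted p under 0.05. The grouped median of the 16 was -0.14, and in that comparison none rose by edgeR, by DESeq2 or at an unadjusted p under 0.05. RBL1 was at -0.51 (edgeR adjusted p = 0.0619) and LIN37 at 0.25 (edgeR adjusted p = 0.618). With shMPZL3 #1 alone 7 of the 16 fell, where 15.3% of the genes tested fell. With shMPZL3 #2 alone 0 did, where 5.8% fell. Of 15 replication licensing genes, 2 fell with both shRNAs grouped, GINS4 (-0.53, edgeR adjusted p = 0.0131) and MCM6 (-0.42, edgeR adjusted p = 0.0204), and none rose (edgeR; 0 at an unadjusted p under 0.05 and 0 by DESeq2). Their median was -0.30, and GINS3 was at 0.24 (edgeR adjusted p = 0.539). With shMPZL3 #1 alone 12 of these 15 fell, where 15.3% of the genes tested fell, and with shMPZL3 #2 2 did, where 5.8% fell. When the shRNAs were tested against each other 12 of the 15 were higher with shMPZL3 #2, where 7.56% of the genes tested were.

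Family relatives of the 10 genes that act outside mitosis, 17 of 18 tested, had a grouped median of -0.02. PLK4, the kinase of centriole duplication, fell by 0.64 (edgeR adjusted p = 0.0287), CCNE1, the cyclin of S phase entry, by 0.56 (edgeR adjusted p = 0.0348) and its partner CDK2 by 0.47 (edgeR adjusted p = 0.00533). In the grouped comparison none rose by edgeR or DESeq2, and 2 were higher at an unadjusted p under 0.05. With single shRNAs CDK6 rose with shMPZL3 #1 and CCNA1 with shMPZL3 #2, as given below. CCND1 was at -0.57 in the grouped fit (edgeR adjusted p = 0.0694). It fell by 1.03 with shMPZL3 #1 (edgeR adjusted p = 2.6e-06) and was at -0.23 with shMPZL3 #2 (edgeR adjusted p = 0.108). AURKC, the germline Aurora kinase, averaged 5.97 normalized counts in the controls, 13.1 with shMPZL3 #1 and 12.9 with shMPZL3 #2, and did not pass (edgeR adjusted p = 0.150).

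**Figure D4:**
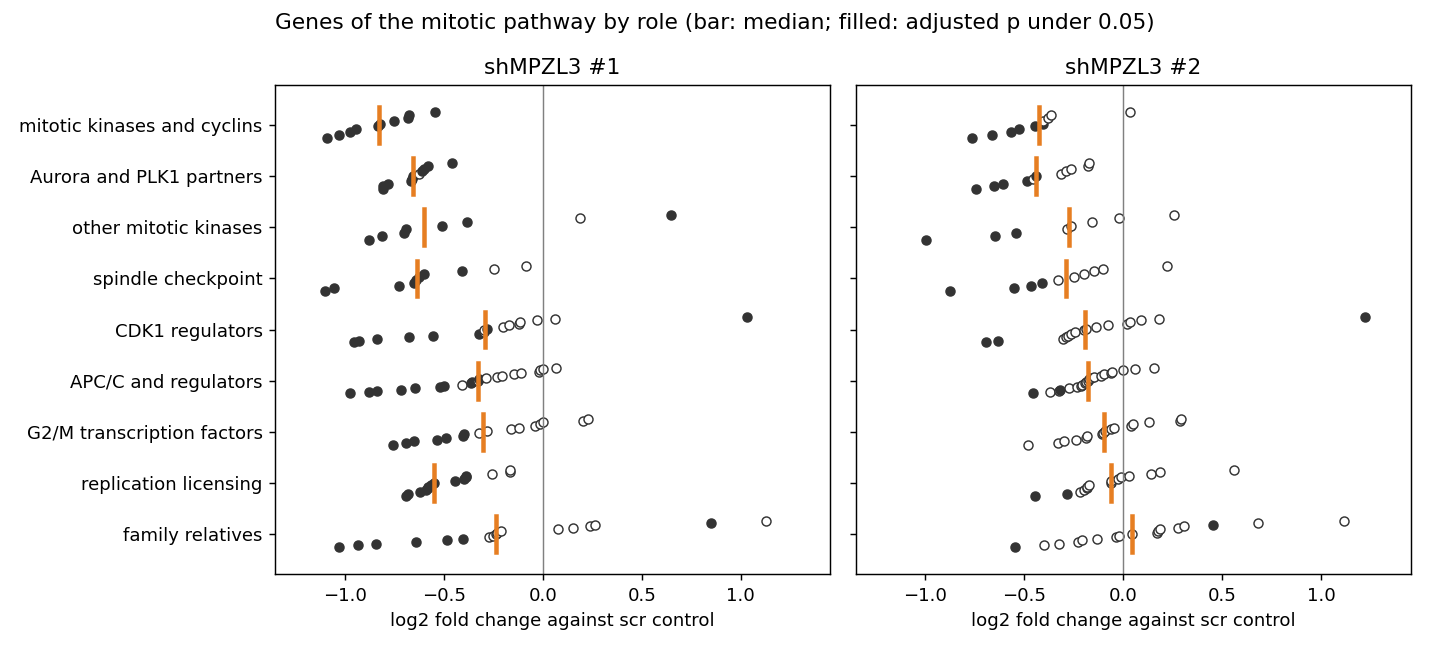
Log2 fold change against scr control (x axis) of each gene tested, by role list (rows), for shMPZL3 #1 at left and shMPZL3 #2 at right; filled points passed an adjusted p of 0.05 and the orange bar is the list median. The mitotic kinases and cyclins have a median of -0.83 with shMPZL3 #1 and -0.43 with shMPZL3 #2, and the family relatives -0.23 and 0.04.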

How the data were processed

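RNA from 9 OVCAR4 libraries, 3 per group, was sequenced as non-directional poly-A libraries. The authors aligned the reads with HISAT2 2.0.5 to hg38 and counted them per gene with featureCounts 1.5.0-p3, per the submitters' processing notes, and deposited whole-number counts, not normalized. The annotation release is not given in the sources used here. Gene lengths and coordinates are those of the deposited table, and FPKM was computed from them.

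Groups followed the labels. Genes were kept with filterByExpr, leaving 16928, and scaled by TMM (factors 0.983 to 1.03). edgeR 4.0.16 in R 4.3.3 fitted quasi-likelihood models, grouped knockdown (6 libraries) against control (3) as the study grouped them, and a model of 3 groups for each shRNA and for their difference. Calls were made at a Benjamini-Hochberg adjusted p under 0.05 over all genes tested, and the standard error is the absolute log2 fold change divided by the square root of F. The grouped model counts the difference between the shRNAs as spread. In the model of 3 groups each gene has a single spread estimate from all 9 libraries. The wider shMPZL3 #1 libraries therefore also enter the standard errors given for shMPZL3 #2. log2 CPM used a prior count of 2. The test was checked on simulated data with the same change in both shRNA groups. The grouped comparison recovered 28 of 81 genes changed 1.5-fold and 59 of 61 changed 4-fold. Of 16728 unchanged genes it called 11. A gene that did not pass is therefore not shown to be unchanged. Replicates are described as biological, with no statement of separate transductions, so p-values measure the spread between these samples. No 2 libraries agreed within sampling noise.

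The genes and lists were chosen with earlier results of these data known, and the 100 base promoter window and the PLK1 to CDK1 ratio after values were seen. Named from each list were the 2 lowest and the highest gene by grouped log2 fold change and up to 4 called genes by adjusted p. TPX2 and KIF20A fell past that limit and are only counted. Genes alike in pattern were the 8 closest protein-coding genes with a mean log2 CPM of at least 3. Of the reference genes, ACTB rose in the grouped comparison (0.46, edgeR adjusted p = 0.0338), GAPDH was at -0.13 (edgeR adjusted p = 0.624) and TBP at -0.30 (edgeR adjusted p = 0.100). With shMPZL3 #1 alone GAPDH (-0.43, edgeR adjusted p = 0.00259) and TBP (-0.39, edgeR adjusted p = 0.0313) fell. ACTB rose with that shRNA (0.53, edgeR adjusted p = 0.00561), and with shMPZL3 #2 alone none of these 3 genes passed. Of 8 epithelial markers tested, MECOM fell in the grouped comparison (-0.43, edgeR adjusted p = 0.0156), while MUC16 (-0.41, edgeR adjusted p = 0.116) and KRT7 (0.33, edgeR adjusted p = 0.0690) did not pass. With shMPZL3 #1 alone MECOM (-0.36, edgeR adjusted p = 0.0153) and MUC16 (-0.61, edgeR adjusted p = 0.00739) fell. KRT7 (0.35, edgeR adjusted p = 0.0325) and PAX8 (0.29, edgeR adjusted p = 0.0406) rose with it. With shMPZL3 #2 alone MECOM was the 1 marker called, and it fell. Alternatives were RLE, upper-quartile and no scaling factors, no filter, at least 10 counts in every library, a replicate block, leaving out each library, the mean of both shRNAs in the model of 3 groups, and DESeq2 1.42.0. Replicate numbers were not taken to pair libraries across groups.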

Additional observations from a re-analysis of the deposited data

Results flagged for a closer look

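For 4 of the 10 genes the effects of the shRNAs differed by a test of the difference itself (edgeR quasi-likelihood test, Benjamini-Hochberg adjustment over all genes tested), each higher with shMPZL3 #2. The log2 difference, shMPZL3 #2 minus shMPZL3 #1, was 0.56 for CCNB1 (edgeR adjusted p = 0.0106), 0.46 for CCNA2 (edgeR adjusted p = 0.0366), 0.58 for AURKB (edgeR adjusted p = 0.0132) and 0.54 for BUB1B (edgeR adjusted p = 0.0116). All shMPZL3 #2 libraries lay above all shMPZL3 #1 libraries for CCNB1, CCNA2 and BUB1B. The share of all genes tested with that arrangement was not counted, so it is given as a description only. For AURKB shMPZL3 #2 replicate 2 (756) lay under shMPZL3 #1 replicate 1 (775). Over all 9 fits that left out 1 library CCNB1 and BUB1B stayed called, with adjusted p up to 0.0416 and 0.0497, while the adjusted p of CCNA2 reached 0.138 without shMPZL3 #1 replicate 3 and that of AURKB 0.0883 without shMPZL3 #2 replicate 1.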

How the results depend on the processing

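No alternative that kept all libraries turned the direction of a gene or of a ratio, and the median of all genes moved by less than 0.1 on the log2 scale under every scaling. The number of the 10 genes called was 8 to 9 of a reported 9 in the grouped comparison, 10 throughout with shMPZL3 #1, 5 to 9 of a reported 6 with shMPZL3 #2, and 4 to 9 of a reported 4 between the shRNAs. The last was 7 with no filter on low counts, where 4.19% of the genes tested were higher, and 9 with the replicate block, where 11.9% were. The cause was not tested. Leaving out 1 library gave 3 to 9 calls in the grouped comparison, 10 to 10 with shMPZL3 #1, 1 to 8 with shMPZL3 #2 and 2 to 7 between the shRNAs, with fewer samples in each fit. Directions turned without 1 library for 3 values, none of them a call: AURKA between the shRNAs (-0.22 to 0.036), AURKB with shMPZL3 #2 (-0.12 to 0.17) and the CCNA2 to CDK1 ratio between the shRNAs (-0.0057 to 0.18). Over all genes the grouped comparison gave 1083 lower and 1584 higher, against 172 and 453 without scr control replicate 1, 276 and 686 without replicate 2, 423 and 815 without replicate 3, 653 lower without shMPZL3 #1 replicate 1, and 2198 and 2479 for the mean of both shRNAs in the model of 3 groups. With shMPZL3 #1 the reported 2585 lower became 1689 without its replicate 3. With shMPZL3 #2 the reported 982 and 1585 became 354 and 1012 without its replicate 3, 488 and 910 without scr control replicate 1, and 1597 and 2083 with the replicate block, and 982 became 501 without scr control replicate 2, 641 without scr control replicate 3 and 609 without shMPZL3 #2 replicate 1. Between the shRNAs the reported 1280 and 1279 became 798 and 786 without shMPZL3 #1 replicate 3, 802 and 667 without shMPZL3 #2 replicate 3, 906 and 741 without shMPZL3 #2 replicate 1, and 1808 and 2015 with the replicate block.

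Same-numbered libraries of different groups had deviations that correlated at -0.00143 to 0.218, not all over 0.1, so the numbers were not read as pairs. Between the shRNAs each library correlated best with its own number (0.137, 0.218 and 0.0966), a hint from the data and not from the design, while scr control replicate 2 did not. The replicate block gave 9 calls in the grouped comparison, 10 with shMPZL3 #1 and 9 with shMPZL3 #2. Of all genes tested 5.85%, 18.3% and 9.43% fell in these fits, in that order. Each of the 10 genes had at least 559 counts in every library, for a counting error of at most 4.23%.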

Other observations

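The log2 ratio of PLK1 to CDK1, looked at after its values were seen, was -0.24, -0.38 and -0.33 in the controls, 0.02, -0.72 and -0.04 with shMPZL3 #1 and -0.05, -0.85 and 0.01 with shMPZL3 #2. Replicate 2 of both shRNAs lay below the controls and the other 4 knockdown libraries above them. The log2 ratio of AURKB to CDK1 was -2.29, -2.36 and -2.26 in the controls, -1.96, -2.51 and -1.77 with shMPZL3 #1 and -1.53, -2.49 and -1.65 with shMPZL3 #2, with replicate 2 again the lowest with either shRNA. Replicate 2 of the controls was also the lowest of its group in both ratios, by less. The labels give no batch for the replicate numbers, and no test was made of this pattern.

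CCNA1, the A-type cyclin best known from the germline and chosen here after its values were seen, fell with shMPZL3 #1 (-0.49, edgeR adjusted p = 0.00988) and rose with shMPZL3 #2 (0.45, edgeR adjusted p = 0.0270), with 2714 normalized counts in the controls, 1940 with shMPZL3 #1 and 3719 with shMPZL3 #2. The difference between the shRNAs was 0.94 (edgeR adjusted p = 0.00019). CDK6, a G1 kinase chosen in the same way, rose with shMPZL3 #1 (0.85, edgeR adjusted p = 0.000164) and was at -0.21 with shMPZL3 #2 (edgeR adjusted p = 0.311), a difference of -1.06 (edgeR adjusted p = 6.6e-05).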
